A study of Homo sapiens with 9 samples.

Results

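The BTG/TOB and ZFP36 families, 2 groups of proteins that lead messenger RNAs to decay, were followed in MCF10A cells through 7 of the 19775 genes named on the array, with 21 of its 54675 probe sets. The members were all probe sets annotated to exactly 1 of 8 symbols: BTG1, BTG2, BTG3, TOB1, TOB2, ZFP36, ZFP36L1 and ZFP36L2. The annotation used here named such a probe set for 7 of these 8. None was named for BTG2, so no value is given for it. MCF10A, a human breast epithelial line that grows without limit but does not form tumours, needs added EGF to proliferate. It was profiled on 9 one-colour Affymetrix arrays, 3 biological replicates in each of 3 groups. The vector group carried the empty pBabe retrovirus. The second group carried a pBabe retrovirus for ErbB2, a receptor tyrosine kinase. The EGF group carried the empty virus and received 50 ng/ml EGF for 2 h before harvest. All cells had been maintained with 20 ng/ml EGF, 5% horse serum, hydrocortisone, cholera toxin and insulin, and after infection they were moved to medium with 2% horse serum and no EGF. The replicates are labelled biological, but nothing tells if each had its own infection; the p-values reflect only the spread among these samples, part of which may be technical.

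BTG and TOB proteins share a domain that binds the deadenylases CNOT7 and CNOT8, which are among the catalytic subunits of the CCR4-NOT complex. This complex shortens poly(A) tails. BTG and TOB proteins are known for slowing proliferation. BTG1 and BTG2 are known to be high in resting lymphocytes, BTG3 is the more distant BTG relative, and TOB1 and TOB2 also bind poly(A)-binding protein. ZFP36 (tristetraprolin), ZFP36L1 and ZFP36L2 carry paired CCCH zinc fingers that bind AU-rich elements of cytokine, growth factor and cell cycle messages and bring in the same deadenylase complex. ZFP36 and BTG2 are classed with the genes that growth factors induce early.

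The promoter stretches of BTG1, the gene with the largest change, and of ZFP36L1, the gene called in opposite directions in the 2 groups compared with vector, are shown first because the results turn on these genes. Both are from RefSeq on GRCh38.p14, 250 bases before to 50 after an annotated start, on the minus strand. BTG1 lies at chr12:92145797-92146096 and ZFP36L1 at chr14:68793367-68793666. Capitals mark matches to the motifs searched.
BTG1: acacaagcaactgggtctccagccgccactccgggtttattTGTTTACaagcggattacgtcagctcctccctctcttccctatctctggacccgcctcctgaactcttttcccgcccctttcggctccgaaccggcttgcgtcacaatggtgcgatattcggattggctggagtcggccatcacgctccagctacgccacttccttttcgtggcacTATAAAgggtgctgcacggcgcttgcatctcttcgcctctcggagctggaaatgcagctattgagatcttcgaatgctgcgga
ZFP36L1: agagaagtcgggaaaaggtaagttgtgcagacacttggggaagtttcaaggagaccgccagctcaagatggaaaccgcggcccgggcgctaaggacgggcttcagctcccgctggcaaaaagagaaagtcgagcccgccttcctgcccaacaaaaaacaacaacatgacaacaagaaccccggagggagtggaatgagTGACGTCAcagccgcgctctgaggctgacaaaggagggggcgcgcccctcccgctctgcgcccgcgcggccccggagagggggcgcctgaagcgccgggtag
For ZFP36L1 the printed stretch is that of a start inside the gene's span. The other annotated start, at the gene's outer end (chr14:68796194-68796493), is not printed, and its stretch held none of the motifs searched. On both strands 7 motifs were searched: the CArG box, TGANTCA (AP-1), TGACGTCA (CREB), GTAAACA (FOXO), ACCGGAAG (ETS), GCGGGGGCG (EGR) and TATAAA. The BTG1 stretch held GTAAACA on the reverse strand, from base -209 to -203 of the start, and TATAAA from -33 to -28. The ZFP36L1 stretch held TGACGTCA from -52 to -45. Over all 35114 promoter stretches of this length, GTAAACA was present in 3.42%, TATAAA in 11.5% and TGACGTCA in 1.85%. Promoters were matched for 7 of the 8 genes, 9 stretches in all, with 4 matches. The remaining match was GCGGGGGCG in BTG2, which 5.07% of all stretches held. The CArG box (1.29% of all stretches), TGANTCA (7.71%) and ACCGGAAG (2.17%) had no match in these windows. A match is a string of letters, not a shown binding site.

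Values are linear MAS5 signals with an equal trimmed mean on all arrays, and a probe set is 1 measurement of a transcript by a set of short probes. Median signals were 19.9 to 20.2 on vector arrays, 17.9 to 20.1 on arrays labelled ERBB2 and 15.6 to 16.9 on EGF arrays, and every array correlated best with one of its own group. The brightest ERBB2 probe set was lower in the arrays labelled ERBB2 (98.83 ± 23.1, SD, n = 3) than in vector arrays (174.0 ± 48.0), a dimmer one was higher (35.59 ± 2.51 against 12.62 ± 8.78), and the other read 17.12 ± 7.17 against 14.78 ± 6.77. The fall of the brightest (-0.71, limma adjusted p = 0.006653) and the rise of the dimmer one (0.89, adjusted p = 0.00926) were both called. The call on the fall was lost without vector replicate 2 (adjusted p = 0.05041) or ERBB2 replicate 2 (0.05118). The rise was not recomputed under the alternatives. The extent of the viral ErbB2 sequence is not given, so which probe sets can detect it is unknown. The label is therefore not settled by this gene, and the group is called "labelled ERBB2" wherever a direction is given. DUSP6, a phosphatase induced by ERK signalling, rose from 9.423 ± 7.51 in vector arrays to 962.6 ± 233 in the arrays labelled ERBB2 and 2789 ± 219 with EGF. Of 7 mammary epithelial markers, 5 had a named probe set and all 5 passed the filter on low values, with summed signals of 19470 to 22030 on vector arrays, 15500 to 17120 on arrays labelled ERBB2 and 17230 to 19730 with EGF. The members went different ways: in vector and labelled ERBB2 arrays the mean signals were 11860 and 6227 for KRT5, 2640 and 148.9 for KRT14, 1443 and 1067 for CDH1, 1063 and 2357 for EPCAM and 3559 and 6345 for KRT18. No probe set was named for TP63 or KRT17. Fibroblast markers summed to 1357 to 1509 on vector arrays, 394.7 to 576.2 on arrays labelled ERBB2 and 501.6 to 557.6 with EGF; DCN made up at least 92.1% of the vector sums, and COL3A1, PDGFRB and LUM did not pass the filter. Blood and endothelial markers summed to 53.99 to 90.08, 118.8 to 129.2 and 60.1 to 67.55, with only PECAM1 past the filter. No marker signal was at 0. As a sign of RNA quality, the ACTB control's 5' signal divided by its 3' signal was 0.701 to 0.796 on arrays labelled ERBB2, 0.325 to 0.436 on vector arrays and 0.378 to 0.505 on EGF arrays, and the 3' control of 18S ribosomal RNA read 11930 to 13510, 1945 to 4570 and 2103 to 3369. The ACTB and 18S controls set the arrays labelled ERBB2 apart, while vector and EGF arrays overlapped in both. The same ratio for the GAPDH control overlapped between all groups. It was 0.838 to 0.901 on arrays labelled ERBB2, 0.821 to 0.885 on vector arrays and 0.762 to 0.85 on EGF arrays. The part of these controls and of the markers in the results was not tested.

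The first question was how the 7 measured genes stood in the arrays labelled ERBB2 against vector. BTG1, BTG3, TOB1, TOB2, ZFP36 and ZFP36L1 fell and ZFP36L2 rose, each judged by its brightest probe set (limma, adjusted p under 0.05 over all 32768 probe sets tested). In this comparison 45.9% of all 13736 genes were called, 20.9% higher and 25.1% lower. The members' median log2 change was -0.88, against -0.07 over all genes, and their median size of change 0.88, against 0.39. The groups did not overlap for 7 of 7 members and for 52.7% of all genes. The members were chosen with earlier results of these data known, so their counts and medians, here and below, are no independent evidence. Counted by probe set, 17 of 21 passed the filter, of which 3 rose, 10 fell and 4 were not called; of all probe sets 38.8% were called, 17.7% higher and 21% lower. The groups did not overlap for 13 of the 17, and for 47.1% of all probe sets. Without a variance trend, or with each gene's probe sets averaged, 6 genes were called, BTG3 being lost (adjusted p = 0.05334 and 0.7986).

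With 2 h of EGF against vector, BTG1, BTG3, TOB1 and TOB2 fell, ZFP36L1 and ZFP36L2 rose, and ZFP36 was not called. The background was 36.2% of genes called, 17.2% higher and 19% lower, and the members' median log2 change was -0.40 against -0.10 over all genes. Groups did not overlap for 6 of the 7 members and for 48.7% of all genes. Of the 17 probe sets, 4 rose and 9 fell, where 28.8% of all probe sets were called, 12.9% higher and 15.9% lower. For 14 of them the groups did not overlap, against 42.2% of all probe sets. The EGF arrays had the lowest medians: with equal array medians the median change of all probe sets went from -0.11 to 0.02, and rises went from 44.8% to 63.3% of all calls. No called member probe set changed sign under any scaling tried. With equal medians the brightest TOB2 probe set lost its call (-0.28, limma adjusted p = 0.1429). So did the second BTG3 probe set (-0.18, adjusted p = 0.2874) and the dim BTG1 probe set (-0.80, adjusted p = 0.05325). That BTG1 probe set also lost its call with quantile normalization (-0.77, adjusted p = 0.05994).

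The direct comparison of the arrays labelled ERBB2 with EGF arrays called 6 of 7 genes, 5 lower (BTG1, TOB2, ZFP36, ZFP36L1 and ZFP36L2) and 1 higher (BTG3), with TOB1 not called. Of all genes 28.8% were called, 12.8% higher and 16% lower. Groups did not overlap for 6 of 7 members and 43.1% of all genes, and the members' median log2 difference was -0.49 against 0.01. Among the 17 probe sets 3 were higher and 7 lower, while 23.8% of all probe sets were called, 11.6% higher and 12.2% lower. In 11 of the 17 the groups did not overlap, against 37.9% of all. Both comparisons with vector use the same 3 vector arrays, so their values are given side by side only. Without ERBB2 replicate 1 the count was 4, because TOB2 (adjusted p = 0.05675) and BTG3 (0.09232) were lost. With each gene's probe sets averaged it was also 4, with TOB1 gained as higher (0.75) and BTG3 (0.28), TOB2 (-0.05) and ZFP36L2 (-0.20) lost.

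**Figure D1:**
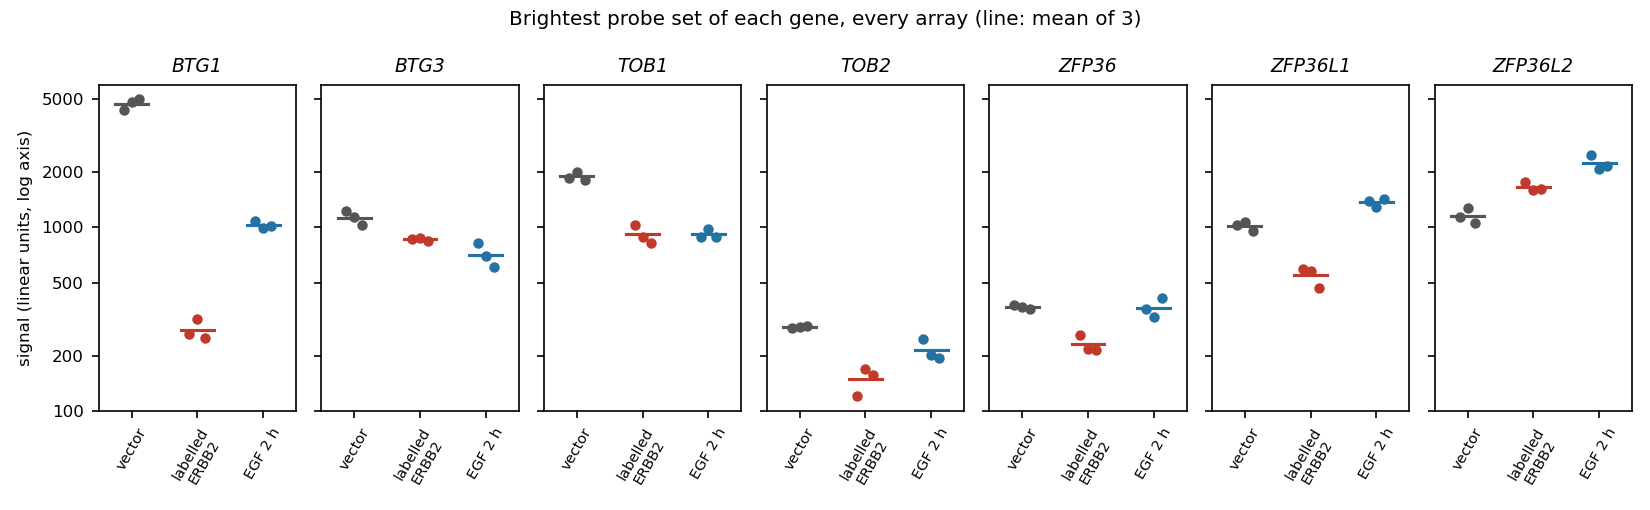
Signal of the brightest probe set of each gene on every array (points; log axis, linear signal units), with the mean of 3 arrays as a line, for vector, labelled ERBB2 and EGF arrays. BTG1 falls from a vector mean of 4716 to 277.2 in the labelled ERBB2 group and 1033 with EGF, and ZFP36L2 is above vector in both; heights of different genes are not comparable because each has its own probes.

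BTG1 (Entrez gene 694, GRCh38.p14 chr12:92140278-92145846) was the member with the largest change. Its brightest probe set read 4332, 4831 and 4985 on the vector arrays, 263.8, 318.9 and 248.8 on the arrays labelled ERBB2, and 1085, 988.5 and 1025 on the EGF arrays. Every vector array was above every EGF array, and every EGF array above every array labelled ERBB2. The mean vector signal was 17.0 times that of the labelled ERBB2 group and 4.57 times that of the EGF group. The log2 change was -4.02 ± 0.09 (SE, limma adjusted p = 2.953e-17) in the arrays labelled ERBB2 and -2.17 ± 0.09 (adjusted p = 1.384e-12) with EGF. By size it ranked 16th among the 6896 probe sets called lower in the first comparison and 41st among the 5216 called lower in the second. Between the arrays labelled ERBB2 and EGF the difference was -1.85 ± 0.09 (adjusted p = 1.564e-11).

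A second bright BTG1 probe set gave the same order. It read 3592, 3530 and 4192 in vector cells, 207.1, 233.9 and 197.6 in the labelled ERBB2 group and 620, 692.4 and 658.3 with EGF. Its log2 changes against vector were -4.05 and -2.49. The dim probe set of BTG1 read 26.47 to 52.48 in vector arrays, 0.5711 to 15.26 in arrays labelled ERBB2 and 8.427 to 12.97 with EGF. It was called lower in both comparisons with vector (-1.26, adjusted p = 0.001995, and -0.92, adjusted p = 0.02522), and the groups labelled ERBB2 and EGF overlapped. Its means in the labelled ERBB2 group (6.117) and with EGF (10.98) were under the filter's limit of 11.51. It therefore passed the filter only through its vector arrays (36.15), and its calls add no support to those of the bright probe sets. At such low signals the size depends on the pseudocount: with 1 it was -2.99 and -1.59, and with 64 it was -0.51 and -0.41. The second of these calls ended under 7 of 18 alternatives (adjusted p 0.01084 to 0.1625), among them leaving out vector replicate 3 (log2 change -0.71), EGF replicate 2 (-0.94) or EGF replicate 3 (-0.85). Since these are bulk samples, fewer cells with a transcript and less of it per cell cannot be told apart.

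BTG3 (Entrez gene 10950, GRCh38.p14 chr21:17593653-17612901) fell in both groups by its brightest probe set. This one, of a design class whose probes can match other sequences too, read 1222, 1135 and 1026 in vector arrays, 866.7, 871.7 and 845.3 in arrays labelled ERBB2 and 822.2, 699.1 and 608.2 with EGF. Vector arrays were the highest and EGF arrays the lowest, with no overlap between groups. The log2 changes were -0.38 ± 0.10 (adjusted p = 0.004555) and -0.66 ± 0.10 (adjusted p = 3.564e-05). For the second BTG3 probe set the signals were 504, 433.5 and 436.5 in vector arrays, 466.8, 563.9 and 429.7 in arrays labelled ERBB2 and 348.7, 370.4 and 386.4 with EGF. The labelled ERBB2 arrays overlapped vector there (0.08, 95% interval -0.15 to 0.31, adjusted p = 0.6102), so the call differs between these probe sets. With EGF this probe set changed by -0.30 (adjusted p = 0.04358), a call lost under 9 of 19 alternatives (0.01814 to 0.2874), including leaving out vector replicate 1 (-0.23) or 3 (-0.33) or any EGF replicate, from -0.33 to -0.26. Both were higher in the arrays labelled ERBB2 than with EGF (0.28, adjusted p = 0.04437, and 0.38, adjusted p = 0.01374). The former difference was lost under 9 of 19 alternatives (adjusted p 0.007891 to 0.2592). These included leaving out any of the ERBB2 replicates (0.28 to 0.30) or EGF replicate 2 (0.28) or 3 (0.18). The second was lost under 3 of 19 (0.007634 to 0.09426): no variance trend (adjusted p = 0.07737), or without ERBB2 replicate 2 (0.27) or EGF replicate 1 (0.34). The dim one of BTG3 was called in no comparison, with log2 changes between 0.00 and 0.18.

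TOB1 (Entrez gene 10140, GRCh38.p14 chr17:50862223-50867978), an inhibitor of proliferation that joins deadenylase and poly(A)-binding protein, fell with EGF by both its probe sets, whereas these disagreed in the arrays labelled ERBB2. The brighter probe set read 1869, 2009 and 1820 in vector arrays, 1036, 886.2 and 827.2 in arrays labelled ERBB2 and 887.9, 982.2 and 885.5 with EGF. Both groups lay below vector and overlapped each other. The log2 changes were -1.04 ± 0.09 in each comparison (adjusted p = 9.178e-09 and 2.494e-08), and the groups labelled ERBB2 and EGF differed by -0.01 (95% interval -0.19 to 0.18). By the dimmer one the signals were 747.3, 610.4 and 765.3 in vector arrays, 717.7, 720.4 and 755.3 in arrays labelled ERBB2 and 195.5, 283.7 and 274 with EGF. Only the EGF arrays were low there. In the arrays labelled ERBB2 the log2 change was 0.05 ± 0.12 (95% interval -0.20 to 0.31, adjusted p = 0.7758), and it was -1.45 ± 0.12 (adjusted p = 2.025e-08) with EGF, and the direct difference was 1.5 ± 0.12 (adjusted p = 1.854e-08). With both probe sets averaged, the direct difference was 0.75 (adjusted p = 1.561e-05), so the call on TOB1 between the 2 groups depends on the probe set. RefSeq lists 2 starts for TOB1, and where along the gene either probe set lies was not analysed here.

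The related TOB2 (Entrez gene 10766, GRCh38.p14 chr22:41433494-41446801) fell in both groups by both probe sets, in a different order. In vector arrays the brighter one read 285.4, 287.5 and 289.6, in arrays labelled ERBB2 120.5, 169.8 and 157.7, and with EGF 246.3, 203.1 and 195.8. The labelled ERBB2 arrays were the lowest and none of the groups overlapped. Its log2 changes were -0.89 ± 0.13 (adjusted p = 1.58e-05) and -0.40 ± 0.13 (adjusted p = 0.02694). The direct difference of -0.49 (adjusted p = 0.009285) was lost without ERBB2 replicate 1 (-0.36) or EGF replicate 1 (-0.39), with adjusted p up to 0.06308 and as low as 0.004402 over 19 alternatives. The dimmer TOB2 probe set read 169.7, 152.7 and 151.4 in vector arrays, 140.1, 101.2 and 105.4 in arrays labelled ERBB2 and 90.55, 71.7 and 91.57 with EGF, so here the EGF arrays were the lowest. Its log2 changes were -0.41 (adjusted p = 0.03573) and -0.79 (adjusted p = 0.0004283), with a direct difference of 0.38 (95% interval 0.07 to 0.70, adjusted p = 0.07594). The EGF call of the brighter one ended under 7 of 19 alternatives (adjusted p 0.012 to 0.1429), including leaving out any vector replicate (-0.40 to -0.39), EGF replicate 2 (-0.36) or EGF replicate 3 (-0.34). The labelled ERBB2 call of the dimmer one ended under 8 of 19 (0.01055 to 0.1335), including leaving out any vector replicate (-0.44 to -0.37) or ERBB2 replicate 2 (-0.34) or 3 (-0.36).

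**Figure D2:**
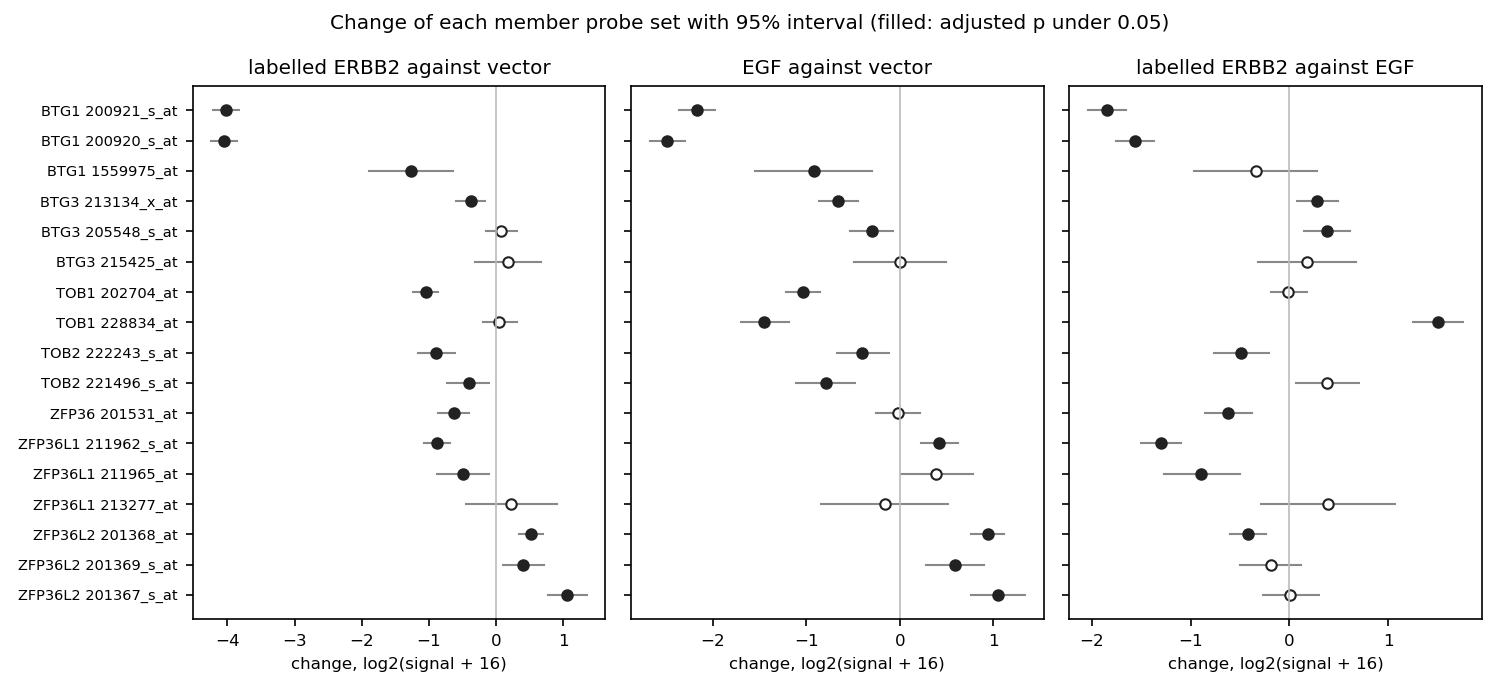
Change in log2(signal + 16) of the 17 member probe sets past the filter in the 3 comparisons (x axes; the ranges differ between panels), with 95% intervals from limma; filled points have an adjusted p under 0.05, and each gene's probe sets run from brightest to dimmest. The probe sets of TOB1 sit at -1.04 and 0.05 in the labelled ERBB2 group against vector, and the brightest one of ZFP36L1 lies at -0.88 there and at 0.42 with EGF.

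The 3 ZFP36 family genes gave 3 different sets of calls. ZFP36 (Entrez gene 7538, GRCh38.p14 chr19:39406847-39409407), the family's founding member, has 1 named probe set, which read 376.6, 366.9 and 359.3 in vector arrays, 261, 218.1 and 216.4 in arrays labelled ERBB2 and 359.9, 323.9 and 411.4 with EGF. The labelled ERBB2 arrays were below all others, and the EGF arrays overlapped vector. Its log2 change was -0.63 ± 0.11 (adjusted p = 0.0001188) in the arrays labelled ERBB2 and -0.02 ± 0.11 (95% interval -0.25 to 0.22, adjusted p = 0.9368) at 2 h of EGF. The direct difference was -0.62 ± 0.11 (adjusted p = 0.0003401). EGR1, another early growth factor-induced gene, rose on the same EGF arrays by 3.77 ± 0.11 (adjusted p = 2.179e-15), from 144.8 to 2174. Other times were not analysed here.

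ZFP36L1 (Entrez gene 677, GRCh38.p14 chr14:68787655-68796243) fell in the arrays labelled ERBB2 and rose with EGF. Its brightest probe set read 1031, 1067 and 950.8 in vector arrays, 597.2, 580.9 and 468.4 in arrays labelled ERBB2 and 1389, 1291 and 1427 with EGF. The groups did not overlap, and the EGF mean was 2.49 times that of the labelled ERBB2 group. The log2 changes were -0.88 ± 0.09 (adjusted p = 2.559e-07) and 0.42 ± 0.09 (adjusted p = 0.001748), and the direct difference was -1.30 ± 0.09 (adjusted p = 4.093e-09). A dimmer probe set of ZFP36L1 read 76.5, 79.99 and 80.91 in vector arrays, 63.92, 34.65 and 60.05 in arrays labelled ERBB2 and 126.4, 110.9 and 91.99 with EGF, the same order without overlap. It was called in the arrays labelled ERBB2 (-0.49, adjusted p = 0.04016), not with EGF (0.39, 95% interval 0.01 to 0.78, adjusted p = 0.1237), and differed directly by -0.89 (adjusted p = 0.001252). That first call ended under 10 of 19 alternatives (adjusted p 0.02024 to 0.23), including leaving out any vector replicate (-0.51 to -0.48), ERBB2 replicate 2 (-0.29) or EGF replicate 2 (-0.49). The dimmest one past the filter, with a mean signal of 13.94, was called in no comparison. With these probe sets averaged, the EGF change was 0.22 (adjusted p = 0.2113), and the changes in the arrays labelled ERBB2 (-0.38, adjusted p = 0.0262) and against EGF (-0.60, adjusted p = 0.002926) were called.

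ZFP36L2 (Entrez gene 678, GRCh38.p14 chr2:43222402-43226606), known for its part in blood cell development, was the one member that rose in both groups. Its brightest probe set read 1147, 1272 and 1053 in vector arrays, 1764, 1604 and 1615 in arrays labelled ERBB2 and 2469, 2083 and 2155 with EGF. The 3 groups did not overlap, vector being the lowest and EGF the highest. The log2 changes were 0.52 ± 0.09 (adjusted p = 5.84e-05) and 0.94 ± 0.09 (adjusted p = 6.211e-08), with a direct difference of -0.42 ± 0.09 (adjusted p = 0.0009989). For its dimmest tested probe set the signals were 56.83, 57.33 and 58.79 in vector arrays, 145.4, 132.9 and 135.8 in arrays labelled ERBB2 and 141.4, 139.8 and 128.6 with EGF. That probe set rose by 1.06 and 1.05 (adjusted p = 2.8e-06 and 6.406e-06), and there the arrays labelled ERBB2 and EGF overlapped (0.01, 95% interval -0.27 to 0.30). The remaining one rose by 0.40 (adjusted p = 0.03523) and 0.59 (adjusted p = 0.004336). Of these calls, that in the arrays labelled ERBB2 ended under 6 of 19 alternatives (0.01499 to 0.119), including leaving out vector replicate 1 (0.42) or 3 (0.35) or ERBB2 replicate 1 (0.34) or 2 (0.39). Averaged over its probe sets, ZFP36L2 differed between the arrays labelled ERBB2 and EGF by -0.20 (adjusted p = 0.1124).

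The 4 member probe sets under the filter had mean signals from 2.27 to 9.954, against the filter's limit of 11.51. They were 1 each of BTG3, TOB2, ZFP36L1 and ZFP36L2, and the least bright one tested had a mean of 13.94. In the BTG3 probe set the vector arrays (10.65 to 21.52) lay above the arrays labelled ERBB2 (1.263 to 9.311) and the EGF arrays (1.558 to 9.871). Without detection calls it is unknown whether such signals exceed background, and no test is given for them.

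Genes with patterns most like each member were found by the distance between pairs of log2 changes (labelled ERBB2 minus vector, EGF minus vector) over the 13736 genes tested. Only the brightest probe set of each gene was used. For BTG3, TOB1 and TOB2, whose probe sets differ, the neighbours hold for that probe set alone. Few genes lay near BTG1: 2 within 0.25, EHF, an epithelial ETS factor, at a distance of 0.192 (-4.03 and -2.36) and MAP7D2 at 0.204 (-3.99 and -2.37), with FLRT3 next at 0.347. ZFP36L1 had 34 genes within 0.25, the nearest being SH3BGRL3 at 0.044 (-0.88 and 0.38), ELK3 at 0.049 (-0.85 and 0.38) and LRIG3 at 0.089 (-0.89 and 0.34). For TOB1 there were 154, led by LIMK2 at 0.016, BTG1-DT at 0.022 and CAPS at 0.024. ZFP36L2 had 212, led by E2F5 at 0.014, GALNT1 at 0.016 and UBE2V2 at 0.019. ZFP36, TOB2 and BTG3 had 652, 660 and 889 genes within 0.25, their nearest being PHTF1, TTC33 and MYZAP (0.010 to 0.011), PCBP2, LYSMD1 and KCNAB2 (0.016 to 0.017), and PAXIP1-DT, TMEM144 and SCARB2 (0.013 to 0.017).

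The machinery that these proteins recruit was described from a list of 40 deadenylation, decapping and exonuclease genes, of which 39 were measured. This list and that of decay regulators below were also chosen with results on these arrays known, so their counts are no independent evidence. In the arrays labelled ERBB2, 11 rose, 8 fell and 20 were not called, or 48.7% called against 45.9% of all genes, with a median log2 change of 0.12 against -0.07. With EGF 11 rose and 6 fell (43.6% against 36.2%; median -0.02 against -0.10). The largest changes were rises of exosome subunits, the nuclease complex that degrades RNA from its 3' end. EXOSC9 went from 69.92 ± 12.7 in vector arrays to 399.4 ± 61.6 in the group labelled ERBB2 (2.27, adjusted p = 1.959e-10) and 235.2 ± 33.9 (1.55, adjusted p = 9.961e-08) with EGF. EXOSC8 rose by 1.48 in the arrays labelled ERBB2 and by 0.64 with EGF. In the same order, EXOSC7 rose by 1.36 and 1.05, EXOSC2 by 0.97 and 0.77 and EXOSC3 by 0.74 and 1.18. Of the 8 listed genes named EXOSC, 5 rose in the arrays labelled ERBB2 and 6 with EGF and none fell. This subset was looked at after its values were seen. Of all genes 20.9% and 17.2% were called higher. Between the arrays labelled ERBB2 and EGF 3 of the 8 were higher and 1 lower, where 12.8% and 16% of all genes were. The exosome nuclease DIS3, outside these 8, was not called in the arrays labelled ERBB2 (0.21), rose with EGF (0.68) and was lower in the direct comparison (-0.47). Set against EGF directly, the arrays labelled ERBB2 had 5 machinery genes higher and 8 lower (33.3% against 28.8%), among them the scavenger decapping enzyme DCPS (0.96), the decapping enzyme DCP2 (0.74), EXOSC8 (0.84) and SKIC3, of the complex that feeds the exosome (-1.08), of whose 2 other probe sets 1 was called the other way.

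The subunits of CCR4-NOT, the complex that BTG/TOB and ZFP36 proteins bind, were described next. Of 11 CNOT genes, a subset looked at after its values were seen, 2 rose, 2 fell and 7 were not called in the arrays labelled ERBB2 (median 0.07), where 45.9% of all genes were called. With EGF 3 rose, 1 fell and 7 were not called (median 0.01), where 36.2% of all genes were called. Between the arrays labelled ERBB2 and EGF none was higher, 4 were lower and 7 were not called (median 0.01), against 28.8% of all genes called. The following 3 were chosen after their values were seen. CNOT7, a deadenylase bound by BTG and TOB, stood at 0.14 (adjusted p = 0.1447; called with equal array medians, 0.03808) and rose by 0.36 with EGF (adjusted p = 0.0009179). Its direct difference of -0.22 (adjusted p = 0.03749) was lost under 9 of 19 alternatives (0.01259 to 0.1856), including leaving out vector replicate 3 (-0.22), ERBB2 replicate 1 (-0.22) or 3 (-0.18) or any EGF replicate (-0.24 to -0.19). CNOT8, its paralogue, was at -0.63 in the arrays labelled ERBB2 (adjusted p = 3.223e-05) and at -0.16 with EGF (adjusted p = 0.2632). The scaffold CNOT1, which ZFP36 proteins bind, was at -0.09 (adjusted p = 0.4257) and -0.29 (adjusted p = 0.009773), the latter not called with equal array medians (-0.17, adjusted p = 0.1505). Both of its 2 other probe sets had the other sign in the arrays labelled ERBB2, and 1 of them was called.

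Of 32 other RNA-binding regulators of decay and known regulators of the members, 27 were measured. In the arrays labelled ERBB2 7 rose and 10 fell (63% called against 45.9% of all genes; median -0.05). HNRNPD, the AU-rich element binding protein AUF1, rose by 1.16 and with EGF by 1.08, although 2 of its 6 other probe sets had the other sign and 1 was called so in each comparison. PRMT1, an arginine methyltransferase that binds BTG1 and BTG2, rose by 1.17 in the arrays labelled ERBB2. The CCCH-type nuclease relative ZC3H12C fell from 496.8 ± 31.2 to 168.1 ± 21.3 there (-1.48, adjusted p = 3.015e-09), as did the polyadenylation factor CPEB2 by a log2 change of -1.19. With EGF 7 rose and 5 fell (44.4% against 36.2%), the falls including CPEB2 (-0.73), N4BP1 (-0.61) and the Roquin gene RC3H1 (-0.60). Directly compared, 1 gene was higher in the arrays labelled ERBB2, PRMT1 (0.65), and 5 were lower than with EGF (22.2% called against 28.8%), including ZC3H12C (-1.53), TNRC6B (-0.99) and CPEB2 (-0.46). The CPEB2 call (adjusted p = 0.04324) was lost under 10 of 19 alternatives (0.02521 to 0.1697). Among these were leaving out vector replicate 1 (-0.46) or 2 (-0.46), ERBB2 replicate 2 (-0.48) or 3 (-0.36), or EGF replicate 1 (-0.45) or 2 (-0.37). The count of 6 became 3 without EGF replicate 1 or without a variance trend.

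Messages known for AU-rich elements, the class that ZFP36 proteins bind, were described from a list of 35 genes, of which 29 were measured. In the arrays labelled ERBB2 15 rose and 10 fell (86.2% called against 45.9% of all genes; median 0.27 against -0.07). IER3, an early response gene, rose from 260.9 ± 49.0 to 1973 ± 99.8 (2.86, adjusted p = 3.125e-14), cyclin D1 (CCND1) by 2.73, and the chemokines CXCL8 and CCL20 by 2.53 and 2.5. With EGF 12 rose and 4 fell (55.2% against 36.2%; median 0.28 against -0.10), led by CCL20 (3.53), CCND1 (3.0), IER3 (2.77) and CXCL8 (2.45). Directly compared, 5 were higher and 12 lower in the arrays labelled ERBB2 than with EGF (58.6% against 28.8%; median -0.12 against 0.01). FOS was at 116.7 ± 21.7 against 569.8 ± 47.4 (-2.15, adjusted p = 5.281e-10), and the ubiquitin-editing TNFAIP3 (-1.66), HIF1A (-1.15) and VEGFA (-1.13) were lower too. The list was chosen with results on these arrays known, so its counts are no independent evidence.

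**Figure D3:**
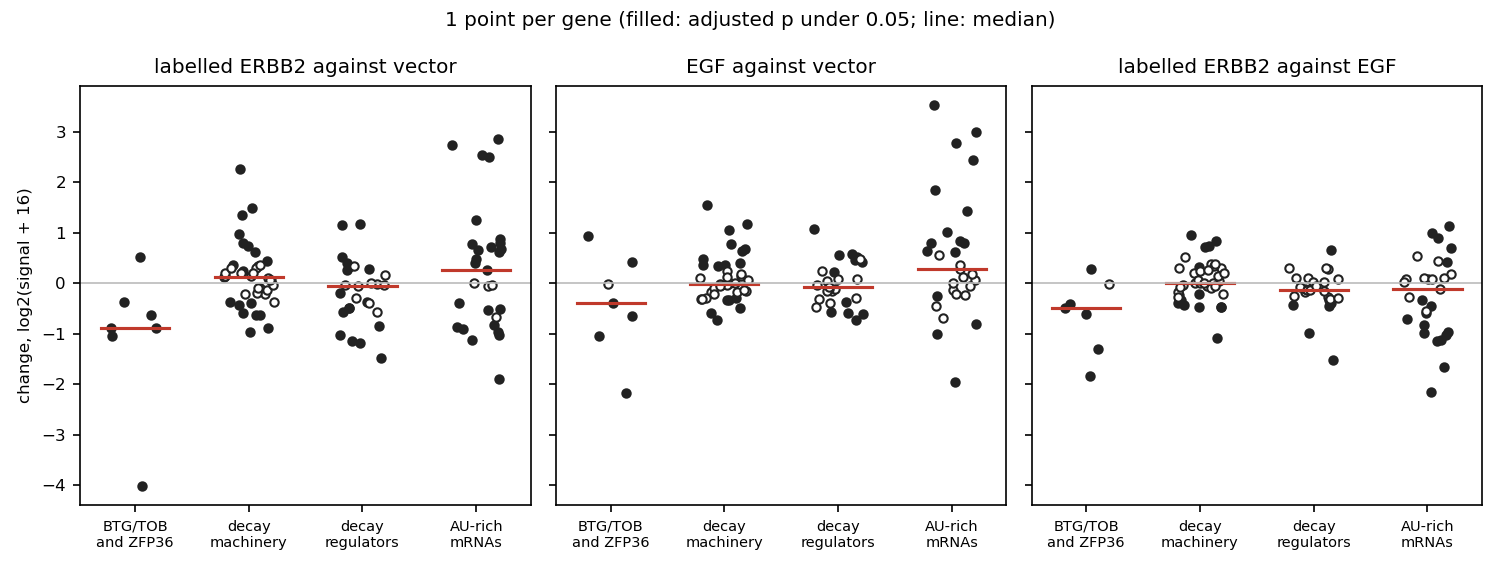
Change in log2(signal + 16) of each measured gene (points; filled where the adjusted p is under 0.05) in the 4 gene groups, with the group median as a line, for the 3 comparisons. In the labelled ERBB2 arrays against vector the members' median is -0.88, that of the decay machinery 0.12 and that of AU-rich messages 0.27.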

How the data were processed

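The authors deposited linear signal intensity values, 1 for each probe set on each array. MAS5 is named in the submitters' processing notes, without version or settings. Leaving out the highest and lowest 2% of probe sets, all arrays had the same mean, 100.03, and a common shift of many genes would be partly absorbed. Of the probe sets, 41097 were annotated to a single gene, 1801 to more than 1 and 11777 to none. Titles of the samples gave the groups.

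Signals were transformed to log2(signal + 16), which understates changes of dim genes. After removal of 62 controls, probe sets whose mean exceeded the 40th percentile (11.51) were tested. With limma 3.58.1 in R 4.3.3, 1 model of 3 group means over 9 arrays (6 residual degrees of freedom, eBayes with trend) gave all 3 comparisons; calls needed a Benjamini-Hochberg adjusted p under 0.05 over 32768 probe sets. The fit was tested on simulated data. Each gene was read by its brightest probe set. For a single gene and 3 against 3 arrays, the smallest exact permutation p is 0.1. Errors are SDs of signals and SEs of log2 changes; the number of arrays limits precision.

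Every member probe set is described; beyond them, up to 4 called genes with the largest change per list and comparison, the 3 genes nearest each member, and ERBB2, DUSP6 and EGR1 were named. CNOT1, CNOT7, CNOT8 and the transcripts BTG1-DT, BTG2-DT and TOB1-AS1 were chosen after their values were seen. Members and lists were chosen with earlier results of these data known. Alternatives were pseudocounts of 1 and 64, quantile normalization, no filter or the 60th percentile, array medians made equal, no trend, array weights, only the arrays compared, a replicate block, averaged probe sets and leaving out each array. Coordinates and promoters are from RefSeq.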

Additional observations from a re-analysis of the deposited data

Results flagged for a closer look

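ZFP36L1 stood out because its brightest probe set was called lower than vector in the arrays labelled ERBB2 and higher than vector with EGF. A called direct difference was also required, and every tested member probe set was screened by this rule. The difference below is therefore part of the selection and not a further test. By its brightest probe set the labelled ERBB2 arrays differed from the EGF arrays by -1.30 on the log2 scale (limma adjusted p = 4.093e-09). All 3 of 3 arrays were lower than every EGF array. Over 19 alternatives that kept to this probe set, the difference lay between -1.36 and -1.19. With the gene's probe sets averaged it was -0.60 (limma adjusted p = 0.002926), and the rise with EGF was not called (0.22, adjusted p = 0.2113). The groups also differ in how long the cells were stimulated, and kind and duration of stimulus cannot be told apart.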

How the results depend on the processing

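No result changed direction with a call on either side, over 51 results of member probe sets and 54 of named list and check genes, of which 6 had a changed call. Of 960 recomputed values for member probe sets, 897 kept their side of the threshold, 62 lost a call and 1 gained one; the losses lay in 10 results. The gain was the EGF rise of a dim ZFP36L1 probe set with equal array medians (0.52, adjusted p = 0.04073). Counts of called members stayed within 1.5 times under every alternative, with lowest values of 6, 5 and 4 against 7, 6 and 6. Without a variance trend the called machinery genes went from 17 to 10 with EGF and from 13 to 8 between the labelled ERBB2 and EGF arrays, and the decay regulators from 6 to 3 between these groups; the cause was not tested. Leaving out 1 array gave 3 to 6 called regulators there, the lowest without EGF replicate 1. Replicate numbers did not pair the arrays: deviations from group means of same-numbered arrays correlated between -0.03 and 0.018, and 1 of 9 arrays correlated best with its own number. With the replicate number as a block, members called stayed at 7, 6 and 6, and the second BTG3 probe set lost its EGF call (-0.30, adjusted p = 0.05246). Signals near background limit the dim probe sets.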

Other observations

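The transcript BTG1-DT, which starts close to BTG1 on the other strand, was looked at after its values were seen. Its dim probe set read 33.07, 34.54 and 18.38 in vector arrays, 5.106, 6.701 and 5.095 in arrays labelled ERBB2 and 9.044, 4.623 and 2.637 with EGF, below vector in every array of both groups. The log2 changes were -1.03 ± 0.28 (limma adjusted p = 0.006633) and -1.05 ± 0.28 (adjusted p = 0.008087). Mean signals were 28.66 in vector arrays, 5.634 in arrays labelled ERBB2 and 5.435 with EGF, against the filter's limit of 11.51. The probe set thus passed the filter only through its vector arrays. Whether the low signals exceed background is unknown, and these calls are no support for the fall of BTG1. The corresponding BTG2-DT probe set was not called in either comparison (0.55, adjusted p = 0.1477, and 0.19, adjusted p = 0.6731), with signals between 5.174 and 35.83. TOB1-AS1 did not pass the filter.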
